A study of Bos taurus with 9 samples.

Results

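The collagen I-binding integrins and the discoidin domain receptors were examined in bovine uterine gland fragments grown in 3D culture. The genes were chosen by symbol for the receptors that bind fibrillar collagen directly, with earlier results of these data known. All 7 of them (ITGA1, ITGA2, ITGA10, ITGA11, ITGB1, DDR1 and DDR2) were found among the 20679 genes measured. RNA was sequenced from 9 cultures on day 5. The 3 CYST cultures received no EGF and were embedded in Matrigel, where the fragments formed cysts, the 3 MAT cultures received EGF in Matrigel, where they formed uterine gland-like (UG-LIKE) structures, and the 3 MAT + COL cultures received EGF in Matrigel mixed with type I collagen. All 3 groups shared growth factor-reduced Matrigel, an extract of basement membrane, and a medium that contained insulin, transferrin, selenite, ascorbic acid and BSA. The fragments came from abattoir uteri of the luteal stage and were picked under a stereomicroscope, so each library pools many fragments. Animal ages are not given in the sources used here.

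Integrins are pairs of an alpha and a beta subunit that span the cell membrane and tie the matrix outside to the actin cytoskeleton inside. ITGB1 encodes the beta 1 subunit, and the products of ITGA1, ITGA2, ITGA10 and ITGA11 each pair with it to form the 4 collagen-binding integrins. Alpha 2 beta 1 is typical of epithelia and platelets and prefers fibrillar collagen, alpha 1 beta 1 is typical of smooth muscle, fibroblasts and endothelium and prefers the sheet-forming collagen IV of basement membrane, alpha 10 beta 1 is known from cartilage, and alpha 11 beta 1 is known from fibroblasts. DDR1 and DDR2 encode receptor tyrosine kinases that collagen activates directly, DDR1 mainly in epithelia and DDR2 mainly in mesenchymal cells. The study asked whether collagen I acts on the tubes through integrins and the ROCK kinases, and blocked both, which makes the receptor transcripts themselves of interest.

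The genes lie at separate places in the ARS-UCD2.0 assembly except for one pair. ITGA1 (ENSBTAG00000016525, chr20:26107451-26282935, minus strand) and ITGA2 (ENSBTAG00000019289, chr20:25970798-26081692, minus strand) are neighbours, with 25758 bp and 0 listed genes between them. ITGA10 (ENSBTAG00000008373) is at chr3:21460467-21477566 on the plus strand and ITGA11 (ENSBTAG00000008380) at chr10:15129321-15262136 on the minus strand. ITGB1 (ENSBTAG00000015910) is at chr13:19971719-20014496 on the plus strand. DDR1 (ENSBTAG00000010682) is at chr23:28172696-28186861 and DDR2 (ENSBTAG00000004885) at chr3:6671274-6853263, both on the minus strand. Of the 7 genes, ITGA1 alone overlapped another listed gene: PELO, a ribosome rescue factor, lies inside it on the same strand at 67.9 to 129 TPM, and reads on shared bases cannot be told apart.

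Between 8424028 and 16829884 reads per CYST library, 6568968 and 17936445 per MAT library, and 16665013 and 17948600 per MAT + COL library were counted on genes. TPM divides each count by transcript length and scales every library to the same sum, so TPM levels can be compared between genes. The libraries were labelled as epithelial cells, and summed TPM of 7 epithelial markers was 19118 to 21883 in CYST, 31204 to 48594 in MAT and 31417 to 42939 in MAT + COL. The 8 fibroblast markers had reads in every library, the fewest being 3 reads of PDGFRB in MAT replicate 1, a count taken as the floor. They summed to 2021 to 4566 TPM in CYST, 755 to 3002 in MAT and 1905 to 3506 in MAT + COL. The 5 smooth muscle markers summed to 149 to 188 TPM in CYST, 40.5 to 88.6 in MAT and 73.5 to 94.9 in MAT + COL, and none was at 0. The 5 endothelial markers summed to 8.60 to 27.5 TPM across all libraries, with CDH5 at 0 in a MAT library. The 5 leukocyte markers summed to 19.6 to 48.3 TPM, with CD3E, the T cell receptor chain, at 0 in some library of every group and PTPRC and CSF1R at 0 in some MAT library. In such bulk samples, fewer cells of a type and less RNA per cell cannot be told apart.

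The 7 receptor genes spanned more than 3 orders of magnitude, and the levels of neighbours in their order overlapped only among the lower ones. ITGB1 was among the most abundant transcripts of these cultures, at rank 119 to 239 of 20679 genes. ITGA2 followed at rank 760 to 2357, ITGA1 at 4611 to 7860 and DDR1 at 5280 to 7508, so that the last pair interleaved. DDR2 (rank 9008 to 12983) and ITGA10 (10319 to 13354) also overlapped, and ITGA11, at 12054 to 14122, overlapped both. ITGA2 was thus the major collagen-binding alpha subunit transcript and DDR1 the major discoidin receptor transcript in all 9 libraries.

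**Figure D1:**
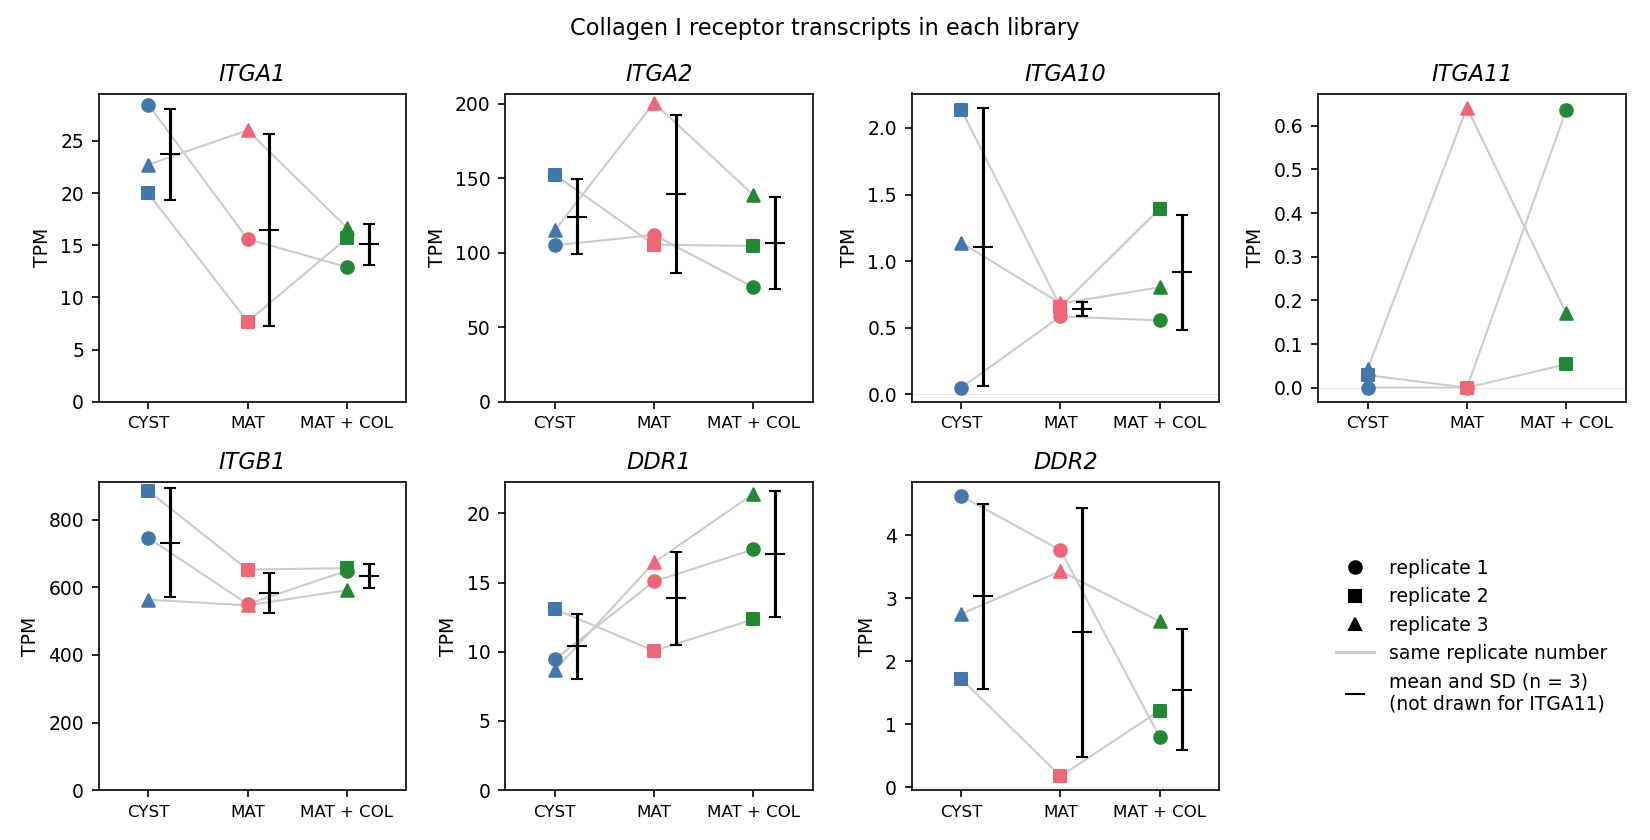
TPM of the 7 collagen I receptor genes in each of the 9 libraries, by group, with 1 panel per gene and its own linear axis. Points are libraries, grey lines join libraries with the same replicate number, and black bars are the mean and SD of 3 libraries (not drawn for ITGA11). ITGA1 in MAT + COL lies wholly under CYST, and for every other gene with a group mean drawn the groups overlap.

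ITGB1 encodes the beta subunit shared by all 4 collagen-binding integrins and by many receptors for laminin and fibronectin. Its TPM in replicates 1, 2 and 3 was 746, 885 and 563 in CYST, 550.0, 652 and 546 in MAT, and 649, 656 and 591 in MAT + COL. CYST held both the highest values and the widest spread, and the groups overlapped. The means were 731 ± 161 (SD, n = 3), 583 ± 59.9 and 632 ± 35.6 TPM.

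ITGA2, the epithelial partner of ITGB1, was at 105, 152 and 115 TPM in CYST, 112, 105 and 201 TPM in MAT, and 76.8, 105 and 139 TPM in MAT + COL. The third MAT library was the highest of all 9, and the ranges of the 3 groups overlapped. Group means were 124 ± 25.02, 139 ± 53.2 and 107 ± 31.0 TPM (SD, n = 3 each).

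ITGA1 was at 28.5, 19.96 and 22.7 TPM in CYST, 15.6, 7.68 and 26.01 TPM in MAT, and 12.9, 15.7 and 16.7 TPM in MAT + COL. The MAT libraries spread over a wider range than either other group, with the second the lowest and the third the next to highest of the 9. Every MAT + COL library was under every CYST library. The means were 23.7 ± 4.34, 16.4 ± 9.20 and 15.1 ± 1.96 TPM (SD, n = 3 each).

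ITGA10 and ITGA11 were near the limit of detection. ITGA10 had 1, 82 and 29 reads in CYST, 9, 27 and 21 in MAT, and 22, 57 and 31 in MAT + COL, which is 0.0506 to 2.14 TPM over the 9 libraries. ITGA11 had 0, 1 and 1 reads in CYST, 0, 0 and 18 in MAT, and 23, 2 and 6 in MAT + COL. It was at or under 3 reads in every CYST library and in 6 of 9 libraries in all, and fell below the filter on low counts, so no fold change was computed for it.

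DDR1, the discoidin receptor of epithelia, was at 9.45, 13.1 and 8.68 TPM in CYST, 15.1, 10.1 and 16.5 TPM in MAT, and 17.4, 12.3 and 21.4 TPM in MAT + COL. The second replicate was the highest of CYST and the lowest of both EGF groups, and it made the groups overlap. The means were 10.4 ± 2.36, 13.9 ± 3.36 and 17.1 ± 4.54 TPM (SD, n = 3 each). DDR2, its mesenchymal relative, was at 4.63, 1.72 and 2.75 TPM in CYST, 3.77, 0.173 and 3.43 TPM in MAT, and 0.794, 1.22 and 2.63 TPM in MAT + COL. The second MAT library held 7 reads of DDR2, against 31 to 104 in the other EGF libraries.

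The first comparison, MAT against CYST, asked which receptor transcripts differed between UG-LIKE structures and cysts in the same gel. None of the 6 receptor genes tested passed the threshold, an adjusted p under 0.05 by edgeR's quasi-likelihood test with Benjamini-Hochberg adjustment over all genes tested, where 1.79% of 12074 genes did. DESeq2 called 0 of the 6 and 10.6% of all genes. By edgeR, 0 of the 6 and 20.7% of all genes had an unadjusted p under 0.05, and the groups did not overlap for 0 of the 6 and 23.7% of all genes. ITGB1 had a log2 fold change (Log2FC) of -0.32 (SE 0.18, 95% interval -0.73 to 0.09, edgeR adjusted p = 0.353). It was lower in MAT in each pair of libraries with the same replicate number, at 0.738, 0.737 and 0.970 times the CYST level.

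ITGA1 had a Log2FC of -0.54 (SE 0.42, 95% interval -1.51 to 0.44, edgeR adjusted p = 0.520), being lower in MAT in 2 of 3 pairs and at 1.14 times CYST in the third. Leaving out MAT replicate 3 gave a Log2FC of -1.08 and leaving out MAT replicate 2 one of -0.19. For DDR1 the Log2FC was 0.42 (SE 0.28, 95% interval -0.23 to 1.07, edgeR adjusted p = 0.449), with pairs at 1.60, 0.769 and 1.90 times. Thus the sign for both genes was carried by 2 of 3 pairs. The ITGA2 difference was smaller, with a Log2FC of 0.17 and an interval of -0.52 to 0.86. The intervals of ITGA10 (-3.01 to 1.41) and DDR2 (-2.42 to 1.77) were several times wider than that of ITGB1. Libraries with the same replicate number correlated in these data, though the labels name no animals. The test was therefore repeated with the replicate as a block, under which 10.6% of genes were called but 0 of the 6 receptor genes. With the block, ITGA1 had a Log2FC of -0.69 (SE 0.26, unadjusted p = 0.0308, edgeR adjusted p = 0.132), and an unadjusted p under 0.05 was reached by 1 of the 6 genes and 28% of all genes.

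The comparison of MAT + COL with MAT asked whether embedding the EGF-treated fragments with collagen I was accompanied by a different level of its receptors. None of the 6 tested genes was called, and neither was any other gene (0% of 12470). By edgeR, 0 of the 6 genes and 0.409% of all genes had an unadjusted p under 0.05, and DESeq2 also called 0 genes, with 0.505% under an unadjusted 0.05. The groups overlapped for all 6 genes, and did not for 3.57% of all genes. The ITGB1 Log2FC was 0.04 (SE 0.15), and its 95% interval of -0.32 to 0.40 leaves room for a modest difference in either direction. DDR1 had a Log2FC of 0.22 (SE 0.31, 95% interval -0.51 to 0.96) and was higher with collagen I in 3 of 3 pairs, at 1.15, 1.23 and 1.30 times.

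ITGA2 had a Log2FC of -0.46 (SE 0.37, 95% interval -1.33 to 0.41), and was lower with collagen I in 3 of 3 pairs, at 0.686, 0.992 and 0.692 times the MAT level. Leaving out 1 library moved this Log2FC over -0.74 to -0.056, the latter without MAT replicate 3. In the fit with the replicate block its interval was -0.74 to -0.13 (unadjusted p = 0.00916), yet its adjusted p over 12470 genes was 0.955, and 4.96% of all genes had an unadjusted p under 0.05 in that fit. ITGA1 (Log2FC -0.21, interval -1.26 to 0.83), ITGA10 (0.44) and DDR2 (-0.70) had wider errors. The DDR2 pairs went opposite ways, at 0.211, 7.02 and 0.767 times, the second value resting on the MAT library with 7 reads.

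**Figure D2:**
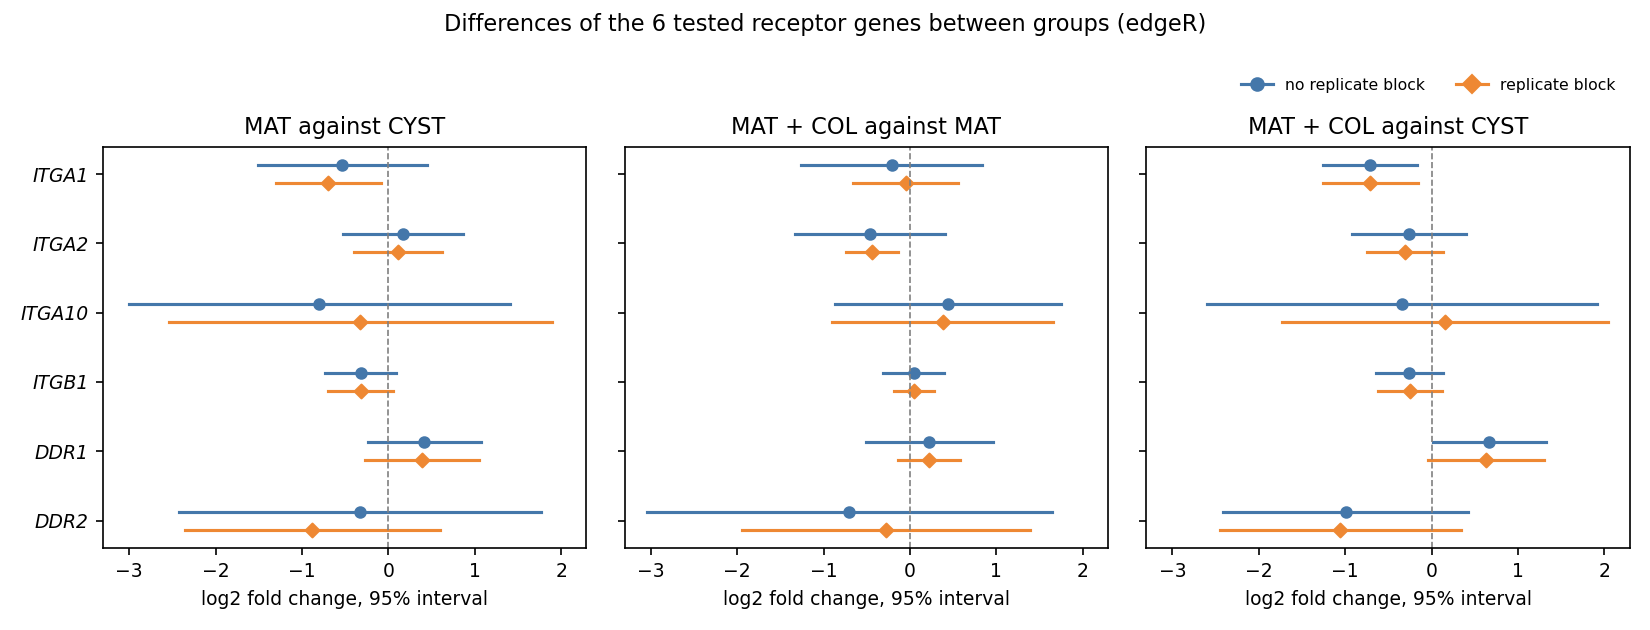
Log2FC with its 95% interval from edgeR for the 6 tested receptor genes in the 3 comparisons, without the replicate block (blue circles) and with it (orange diamonds). The ITGA1 interval for MAT + COL against CYST lies below 0 in both fits, the intervals of ITGA1 for MAT against CYST and of ITGA2 for MAT + COL against MAT lie below 0 only with the block, that of DDR1 for MAT + COL against CYST lies just above 0 only without it, and no gene passed an adjusted p of 0.05.

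MAT + COL against CYST combined both changes of the culture and shares its libraries with the comparisons above. Here again 0 of 6 receptor genes were called, where 1.49% of 12509 genes were, and 0 of 6 by DESeq2, where 12% were. ITGA1 (Log2FC -0.71, SE 0.23, 95% interval -1.26 to -0.17) had an unadjusted p of 0.0174 and an edgeR adjusted p of 0.139, and MAT + COL was at 0.453, 0.785 and 0.734 times CYST in the 3 pairs. It was the only 1 of the 6 whose groups did not overlap, which held for 24.7% of all genes tested. DDR1 (Log2FC 0.67, SE 0.28, 95% interval 0.01 to 1.32) had an unadjusted p of 0.0463 and an edgeR adjusted p of 0.224. An unadjusted p under 0.05, which these 2 genes had, was found for 21.7% of genes in this comparison. With the block, 0 of the 6 genes and 5.26% of all genes were called, and ITGA1 alone of the 6 had an unadjusted p under 0.05, as 26.3% of all genes did. ITGB1 had a Log2FC of -0.26 (SE 0.17) and DDR2 one of -0.99 (SE 0.61), neither past the threshold.

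Levels per length also gave the makeup of the receptor pools. ITGA2 provided 78.6, 87.3 and 82.8% of the summed TPM of the 4 collagen-binding alpha subunits in CYST, 87.4, 92.7 and 88.01% in MAT, and 84.5, 85.9 and 88.7% in MAT + COL. Every MAT library was above every CYST library, with means of 89.3 ± 2.89% and 82.9 ± 4.35% (SD, n = 3 each). The difference of 6.44 percentage points had an exact two-sided permutation p of 0.1, the smallest that 3 against 3 libraries can give. With collagen I the share differed from MAT by -2.97 percentage points (exact permutation p = 0.3), with overlapping groups. When the share was taken over ITGA1 and ITGA2 alone, the MAT and CYST groups overlapped and the difference was 6.31 percentage points (exact permutation p = 0.2).

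Within the beta subunits, the ITGB1 share was lower in the EGF libraries, by a measure added after values had been seen. After Benjamini-Hochberg adjustment over 42 pool comparisons, its exact permutation p was 0.3 for each EGF group against CYST. It provided 79.0, 72.5 and 76.6% of the summed TPM of 8 beta subunits in CYST, 60.4, 53.8 and 56.2% in MAT, and 57.2, 55.5 and 56.2% in MAT + COL. All 6 EGF libraries were under all 3 CYST libraries, and MAT and MAT + COL overlapped. The differences from CYST were -19.2 percentage points for MAT and -19.7 for MAT + COL, each with an exact permutation p of 0.1, the smallest possible, and that between MAT + COL and MAT was -0.514 (exact permutation p = 0.9).

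The beta subunit with the largest gain in mean share was ITGB6, the epithelial partner of the alpha V subunit, which binds latent TGF-beta and fibronectin rather than collagen. ITGB6 was at 47.4, 154 and 79.6 TPM in CYST, 213, 367 and 285 TPM in MAT, and 290.2, 352 and 298 TPM in MAT + COL. Its mean share of the beta subunits was 9.49% in CYST, 27.7% in MAT and 27.9% in MAT + COL. With ITGB6 left out of the sum, the ITGB1 share was 84.0 ± 1.63% in CYST, 78.5 ± 1.14% in MAT and 78.1 ± 1.15% in MAT + COL, so that the differences from CYST were smaller, at -5.51 and -5.91 percentage points, and the EGF groups still did not overlap with CYST.

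**Figure D3:**
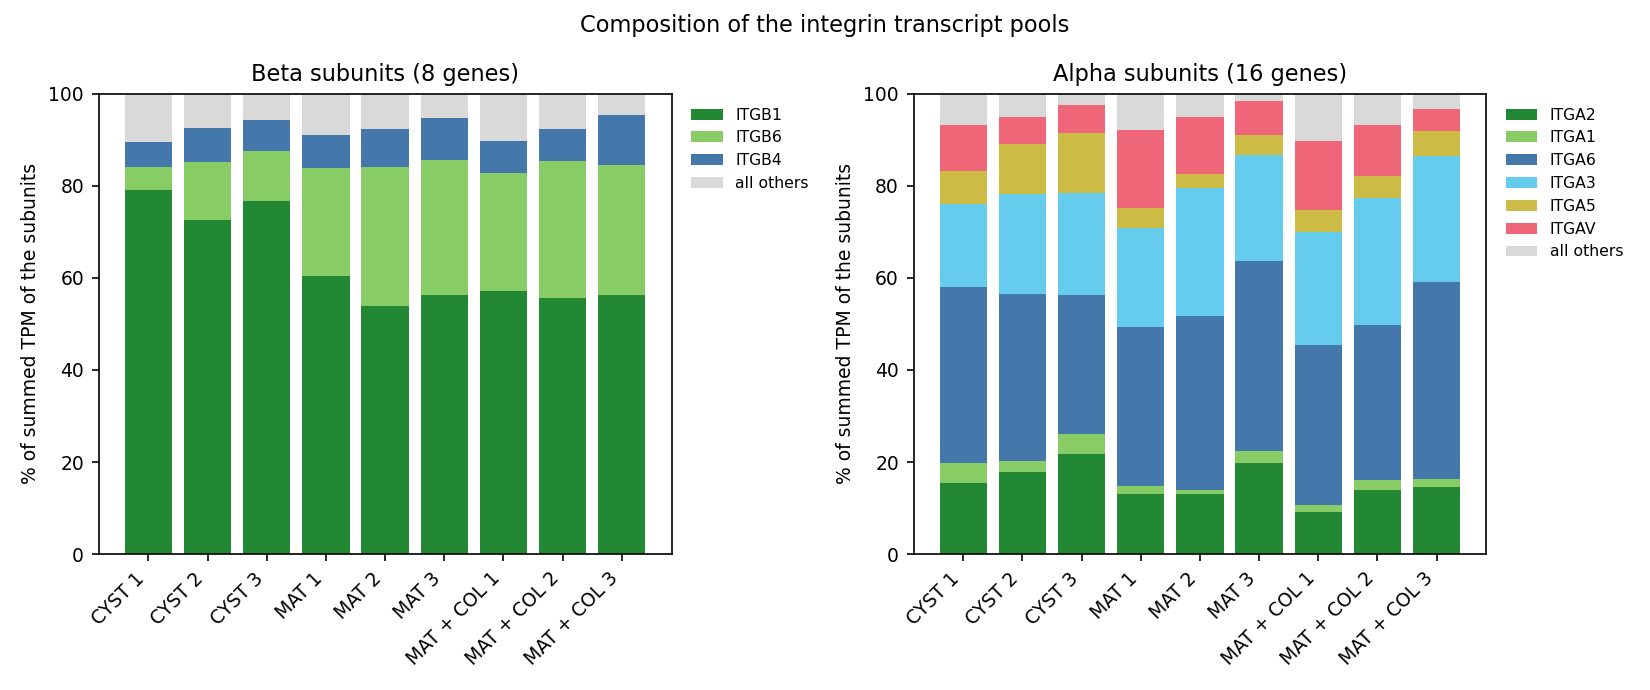
Share of the summed TPM of 8 beta (left) and 16 alpha (right) integrin subunits held by the named subunits, in %, with 1 bar per library. ITGB1 held 72.5 to 79.0% of the beta subunits in CYST and 53.8 to 60.4% in the 6 EGF libraries, where the ITGB6 segment is wider, and ITGA2 and ITGA1 make up the green base of the alpha bars.

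The 4 collagen-binding subunits together provided 19.7, 20.4 and 26.3% of the summed TPM of 16 alpha subunits in CYST, 14.9, 14.0 and 22.5% in MAT, and 10.7, 16.3 and 16.4% in MAT + COL. They were lower than in CYST in 3 of 3 pairs in both EGF groups. The MAT + COL share did not overlap with CYST (-7.70 percentage points, exact permutation p = 0.1, the smallest possible), and the MAT share did overlap (-5.07, exact permutation p = 0.3). ITGB1 TPM per summed TPM of the 12 alpha subunits that can pair with it was 1.07 ± 0.0336 in CYST, 0.660 ± 0.133 in MAT and 0.755 ± 0.130 in MAT + COL (SD, n = 3 each). The EGF libraries did not overlap with CYST (exact permutation p = 0.1 for each group, the smallest possible). The 12 include ITGAV, whose product also pairs with that of ITGB6, at means of 49.7, 108 and 84.6 TPM in CYST, MAT and MAT + COL. The ratio is therefore no measure of beta 1 per alpha subunit bound to it.

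DDR1 provided 77.1 ± 10.7% of the summed TPM of DDR1 and DDR2 in CYST, 87.0 ± 9.87% in MAT and 91.9 ± 3.38% in MAT + COL (SD, n = 3 each). MAT + COL was above CYST in 3 of 3 pairs without overlap (14.8 percentage points, exact permutation p = 0.1, the smallest possible). DDR1 TPM per ITGA1 TPM was 0.332, 0.656 and 0.382 in CYST, 0.968, 1.31 and 0.633 in MAT, and 1.35, 0.788 and 1.28 in MAT + COL. The balance between both genes was higher in MAT + COL than in CYST in 3 of 3 pairs, again with an exact permutation p of 0.1. This ratio was added after values had been seen. It joins the 2 receptor genes with an unadjusted edgeR p under 0.05 in this comparison, ITGA1 lower and DDR1 higher. It is therefore a restatement of those differences and not a further result. The exact permutation test does not use the pairs. In a sign-flip test over the 3 same-numbered pairs, each pool comparison with an exact permutation p of 0.1 had p = 0.25. That is the smallest value 3 pairs can give. The pool measures were 14 in number with 42 comparisons, and after Benjamini-Hochberg adjustment over them the lowest exact permutation p was 0.3.

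The receptors differed in how they varied with group and replicate. Of the variance of log2(TPM + 1) over the 9 libraries, the group accounted for 47.9% in DDR1, 34.6% in ITGB1, 33.7% in ITGA1, 16.3% in ITGA2, 15.4% in DDR2 and 5.76% in ITGA10, against a median of 28.6% over 12705 genes. The replicate number accounted for 54.8% in ITGA10, 44.8% in ITGB1, 44.4% in ITGA2, 44.1% in DDR2, 26.4% in ITGA1 and 9.62% in DDR1, against a median of 35.4%. DDR1 thus had the highest group share and the lowest replicate share of the 6 genes.

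ITGA1 and DDR2, both known from mesenchymal cells, had like patterns over the 9 libraries, with Pearson's r = 0.860 and a Spearman rank correlation of 0.733 on log2(TPM + 1). All points come from the same 9 libraries in 3 groups, and r was 0.592 over 7 libraries without CYST replicate 1 and MAT replicate 2. The second MAT library was the lowest of all in ITGA1, in DDR2 and in the fibroblast marker sum (755 TPM). With the fibroblast marker sum, ITGA1 had r = 0.746 and a Spearman rank correlation of 0.733, and DDR2 had r = 0.591 and a rank correlation of 0.367. ITGA2 had r = 0.442 and a rank correlation of 0.600 with the same sum. Over 7 libraries without CYST replicate 3 and MAT replicate 2, r was 0.741 for ITGA2, 0.313 for ITGA1 and 0.0707 for DDR2. Without MAT replicate 2, r was 0.394 for ITGA1 and 0.121 for DDR2, so both rested largely on that library, and 0.499 for ITGA2. Against the epithelial marker sum, r was 0.673 for DDR1 and -0.574 for ITGA1. The part of the marker levels in the receptor differences was not tested.

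**Figure D4:**
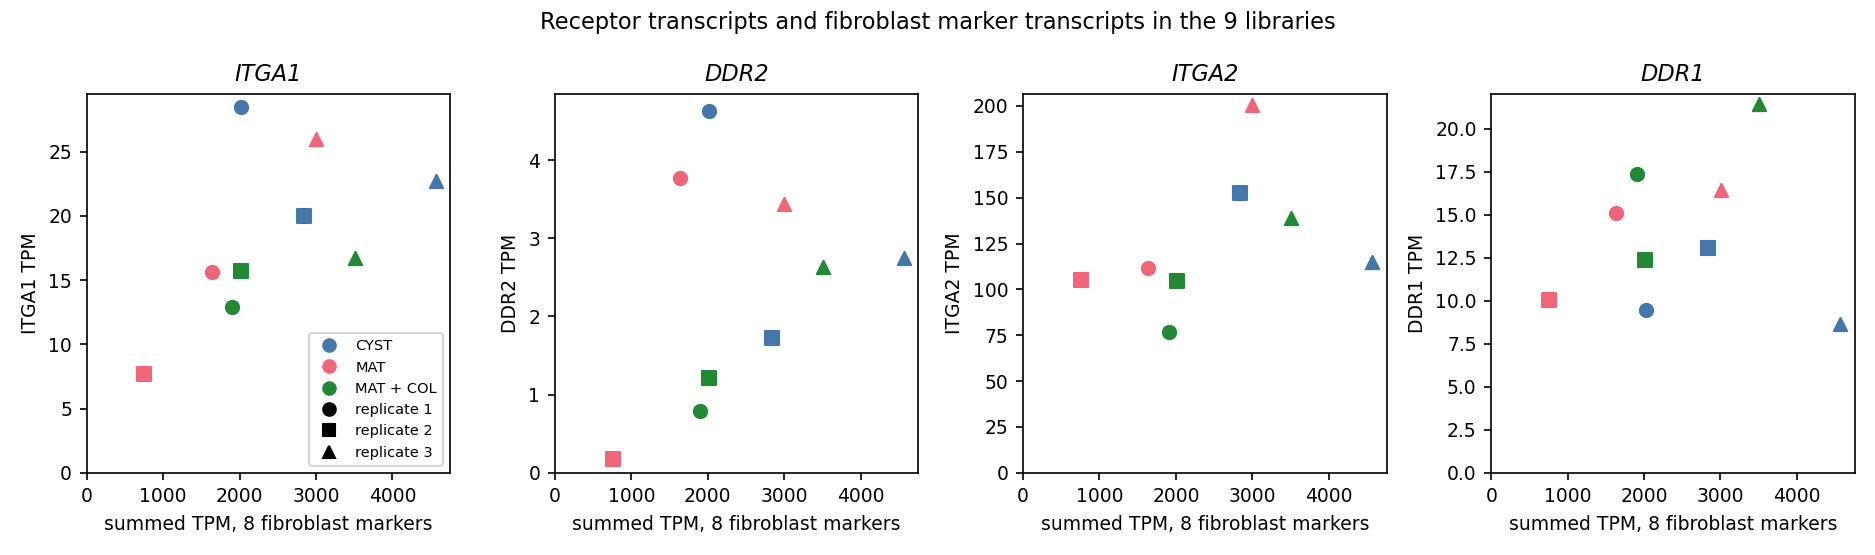
TPM of ITGA1, DDR2, ITGA2 and DDR1 against the summed TPM of 8 fibroblast markers, with 1 point per library, coloured by group and shaped by replicate number. The second MAT library has the lowest marker sum (755 TPM) and the lowest ITGA1 and DDR2, and the other 8 libraries are scattered.

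For each receptor, the 3 genes with the highest r of log2 CPM over the 9 libraries were taken from 10946 to 10947 genes. These values were selected as the highest of many, over libraries that share groups and replicate numbers. What r such a selection would give by chance was not tested, so the genes are listed as description only. ITGA1 was closest to MAN1A1 (r = 0.940), JAM3 (0.934) and IGFBP4 (0.932), and ITGA2 to MRPS6 (0.936), ATXN2L (0.927) and GAL (0.916). ITGB1 was closest to CRYM (0.965), LARS2 (0.963) and CYB5B (0.962). DDR1 was closest to COX8B (0.951), CLCN7 (0.934) and GRSF1 (0.933), and DDR2 to SLC35C2 (0.942), PPP1R10 (0.940) and SRM (0.937). ITGA10, measured from few reads, was closest to LDAF1 (0.937), PLOD3 (0.931) and DLL4 (0.929).

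The other receptors and the signaling genes around them were read from the same fits. In MAT against CYST, the median Log2FC was -0.32 for the 6 collagen I receptor genes and 0.01 for all genes tested. None of the 4 laminin receptor subunits passed, although all 4 were higher in MAT (median Log2FC 0.47). Among 8 subunits of integrins that recognise the RGD motif of fibronectin and vitronectin, 0 passed without the block (1.79% of all genes) and 2 with it (10.6% of all genes), ITGB6 (Log2FC 1.63, edgeR adjusted p 0.0766 without and 0.00534 with the block) and its partner ITGAV (Log2FC 1.12, 0.0805 and 0.00957). The study, under its own test and criteria, named ITGB6, ITGAV and CD44 among genes significantly higher with EGF. Of 2 tested leukocyte and other integrin subunits, 1 was called, beside 1.79% of all genes. It was ITGB7, best known from lymphocytes, which rose from 0.896 ± 0.767 to 18.6 ± 8.07 TPM (Log2FC 4.30, SE 0.72, edgeR adjusted p = 0.0401).

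In this comparison 1.79% of all genes were called without the block and 10.6% with it. Of 4 tested genes for other proteins that bind collagen, 1 was called in either fit. This was CD44, mainly a receptor for hyaluronan, which rose from 66.8 ± 15.0 to 171 ± 27.4 TPM (Log2FC 1.36, edgeR adjusted p = 0.0256). Among 7 genes that cut collagen or shed receptors, 1 was called without the block and 3 with it. The collagenase gene MMP13 rose from 483 ± 124 to 2976 ± 917 TPM (Log2FC 2.61, SE 0.30, edgeR adjusted p = 0.0191). With the block, the collagenase gene MMP1 and the gelatinase gene MMP9 were also called, both lower in MAT (Log2FC -1.02 and -1.34 without the block, where edgeR adjusted p was 0.312 and 0.155, and 0.0265 and 0.00756 with it). The 7 tested collagen chains of gel and basement membrane had 0 calls, with COL1A1 at 275 TPM in CYST, 172 TPM in MAT and 259 TPM in MAT + COL.

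Inside the cell, 0 of 26 genes for integrin activation and the adhesion plaque passed without the block in MAT against CYST, beside 1.79% of all genes. With it 3 of the 26 passed, a share near the 10.6% of all genes: the kindlin gene FERMT3 (Log2FC 3.05, edgeR adjusted p 0.0540 without and 0.0226 with the block) and the talin-binding KANK2 (0.88, 0.517 and 0.0252) were higher, and the kindlin gene FERMT2 was lower (-0.89, 0.0805 and 0.0293). Neither ROCK kinase gene passed the threshold, with ROCK1 at 19.5, 24.0 and 19.3 TPM and ROCK2 at 8.26, 7.70 and 8.84 TPM in CYST, MAT and MAT + COL. Without the block, no cell type marker was called in MAT against CYST. With it, 3 of 7 epithelial markers (EPCAM, KRT8 and KRT19) were called higher, beside 10.6% of all genes called. Lower calls were 1 of 8 fibroblast markers (DCN) and 1 of 5 smooth muscle markers (TAGLN). By sign of Log2FC without the block, all 7 epithelial markers were higher, all 8 fibroblast markers lower, and 4 of 5 smooth muscle markers lower. The part of the marker levels in the list counts was not tested.

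In MAT + COL against MAT, none of these lists held a called gene, with or without the block. By sign of Log2FC there, all 7 epithelial markers were lower with collagen I (median -0.17 without the block). All 8 fibroblast markers were higher (median 0.34 without the block and 0.48 with it). The part of these marker levels in the receptor differences was not tested. In MAT + COL against CYST, MMP13 (Log2FC 2.15, edgeR adjusted p = 0.0259), CD44 (0.99, 0.0383) and FERMT3 (3.18, 0.0381) rose. They were 1 of 7, 1 of 4 and 1 of 26 tested genes of their lists, beside 1.49% of all genes. ITGB6 (Log2FC 1.70, edgeR adjusted p 0.0685 without and 0.0251 with the block), ITGB7 (3.80, 0.0601 and 0.0157) and MMP9 (-1.07, 0.0846 and 0.0468) passed with the block, as 5.26% of all genes did. With the block, 1 of 8 RGD-binding subunits, 1 of 3 leukocyte and other subunits and 2 of 7 genes for collagen cutting or receptor shedding were called. The median Log2FC of the 6 collagen I receptor genes was -0.09 in the former comparison and -0.30 in the latter, beside medians of -0.00 and 0.04 over all genes.

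**Figure D5:**
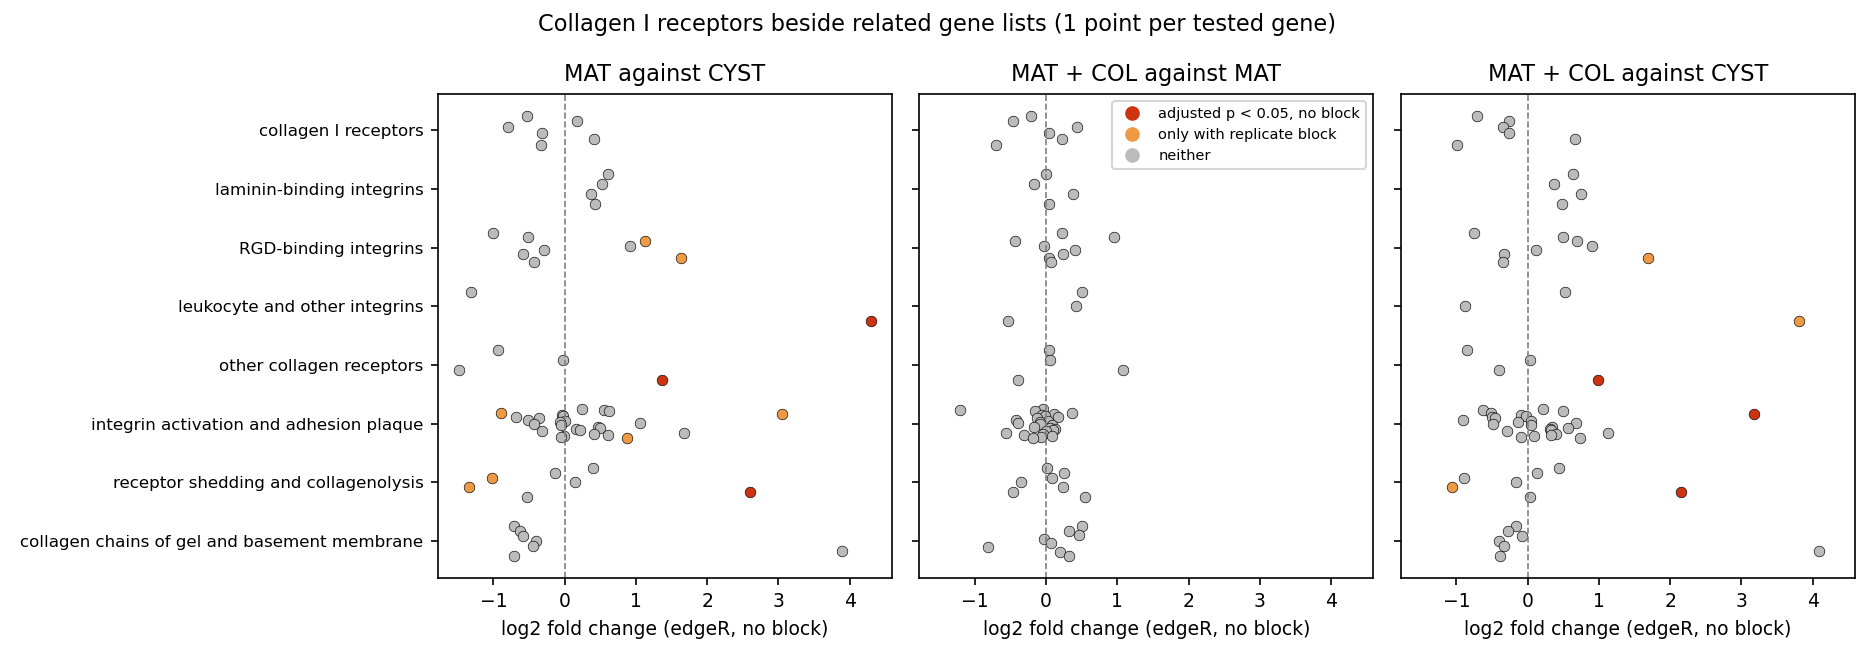
Log2FC (edgeR, no block) of every tested gene in the collagen I receptor list and 7 related lists, for the 3 comparisons. Red points passed an adjusted p of 0.05 without the replicate block, orange points passed only with it, and grey points passed in neither, as did all collagen I receptor genes and every listed gene in MAT + COL against MAT.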

How the data were processed

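Total RNA of 9 cultures was made into SMART-Seq HT PLUS libraries. The authors aligned trimmed reads to ARS-UCD2.0 in CLC Genomics Workbench and deposited read counts per gene without normalization, and the TPM of the same genes. The annotation release and strand setting are not given in the sources used here. Groups and replicate numbers came from the sample labels, and p-values measure the spread between these libraries. The labels name no animals, and the numbers in the library names differ in part from the replicate numbers. The study's text reads the clustering of MAT and MAT + COL libraries as one by individual, and for CYST the pairing was inferred from correlations. Genes were kept by filterByExpr (minimum count 10), normalized by TMM and tested with edgeR 4.0.16 (glmQLFit and glmQLFTest) in R 4.3.3 for each comparison on its own 6 libraries, and p-values were adjusted by Benjamini-Hochberg over the genes tested. After group means were subtracted, libraries sharing a replicate number correlated over 0.1 in every pair (0.278 to 0.687), so the replicate number was also used as a block. Libraries with different numbers had r of -0.524 to 0.111, the highest for MAT + COL replicate 1 with CYST replicate 2. Pools were compared by exact permutation and by a sign-flip test over same-numbered pairs. The pool measures other than the ITGA2 share were added after values had been seen. DESeq2 1.42.0, RLE, no filter, all 9 libraries, limma 3.58.1 on log2(TPM + 1) and log2(TPM + 0.1), and leaving out each library were alternatives. Counts at or under 3 were taken as the floor, which covers counting error only, since reads carry no molecular identifiers. The genes named were all 7 receptors, up to 5 called genes per list by smallest p, ROCK1, ROCK2, COL1A1, COL1A2 and the 3 genes most like each receptor, with ITGB6, ITGA3, ITGA6, PELO and genes at 0 named after their values were seen. Members and lists were chosen with earlier results of these data known. Of 122 listed genes, 118 were found by symbol. A further list is not reported here.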

Additional observations from a re-analysis of the deposited data

How the results depend on the processing

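DDR2, ITGA10 and ITGA11 rested on 0 to 104 reads per library, and every comparison on n = 3 libraries per group. No receptor gene was called in any comparison under DESeq2, RLE, no filter, all 9 libraries, limma or without any 1 library (edgeR without the block), nor under the replicate block with all libraries, which changed no call of a receptor gene. It raised the genes called in MAT against CYST from 216 to 1277 and in MAT + COL against CYST from 186 to 658, and DESeq2 called 1278 and 1500. With the replicate block and without replicate 3, 1 receptor gene was called in MAT against CYST (ITGA1, Log2FC -1.05, edgeR adjusted p 0.0177) and 1 in MAT + COL against CYST (ITGA2, -0.51, edgeR adjusted p 0.0458). The share of all genes called in these smaller fits was not recorded. These calls therefore cannot be set beside it and are not read as results about the receptors. Of 324 alternative Log2FC values, 20 reversed sign, none of them past the threshold. In MAT against CYST, DDR2 was 0.07 without CYST replicate 1 and 0.24 without MAT replicate 2, ITGA2 was -0.23 without MAT replicate 3 and, with the block, -0.14 without replicate 3, and ITGA10 with the block was 0.63 without replicate 2 and 0.041 without replicate 3. In MAT + COL against MAT, ITGA1 was 0.025 and 0.037 by limma with pseudocounts 1 and 0.1, 0.35 without MAT replicate 3 and, with the block, 0.13 without replicate 1 and 0.30 without replicate 3. There, ITGB1 was -0.021 without MAT replicate 1, DDR1 was -0.025 without MAT + COL replicate 3, and DDR2 with the block was 0.82 without replicate 1. In MAT + COL against CYST, ITGA10 was 0.15 with the block, 0.26 with the block in DESeq2, 0.36 by limma with a pseudocount of 0.1, 0.38 without CYST replicate 2 and, with the block, 0.75 without replicate 2 and 0.57 without replicate 3. Leaving out 1 library moved the ITGA2 share of collagen-binding alpha TPM over 4.29 to 8.64 percentage points in MAT against CYST, -4.13 to -1.31 in MAT + COL against MAT and 1.32 to 5.67 in MAT + COL against CYST. The ITGB1 share of beta TPM in MAT + COL against MAT ranged from -2.01 to 1.30, the latter without MAT replicate 1. Leaving out 1 library gave Log2FC ranges of -0.72 to 0.24 for DDR2 and -0.23 to 0.38 for ITGA2 in MAT against CYST, of -0.55 to 0.35 for ITGA1, -0.021 to 0.13 for ITGB1 and -0.025 to 0.41 for DDR1 in MAT + COL against MAT, and of -0.89 to 0.38 for ITGA10 in MAT + COL against CYST. The causes were not tested.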
